A study of Mus musculus with 24 samples.

Results

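The synthesis, activation and Golgi import of sialic acid were examined at the level of RNA through 6 genes, Gne, Nans, Nanp, Cmas, Slc35a1 and Npl, in cells of the mouse colorectal cancer line MC38. The genes were selected by name from the pathway, and all 6 were found by symbol among the 52636 gene identifiers of the expression table. RNA sequencing covered 24 samples, which were 3 samples of each of 8 lines, and the samples of a line were harvested at separate time points or passages. The table gives normalized counts, which are read counts that the authors scaled for library size and composition and then rounded. MC38-WT was the unmodified line, kept without puromycin at passages 7 to 9, and the other 7 lines were kept with puromycin. MC38-MOCK#1 carried an empty CRISPR-Cas9 construct and was the control for MC38-CMAS KO, a knockout of Cmas, for MC38-COSMC KO, a knockout of C1galt1c1 (the gene of the COSMC chaperone), and for MC38-DKO, in which both genes were targeted; these 4 lines were taken at passages 4 to 6. MC38-MOCK#2 was the control of the CRISPR-dCas-VPR system, which raises transcription from a gene's own promoter, for the lines labelled MC38-FUT4 and MC38-FUT9; MC38-MOCK#2 and MC38-FUT9 were taken at passages 6 to 8, and the line labelled MC38-FUT4 at passages 7 and 8. All lines derive from MC38, for which the labels give the strain C57BL/6. MC38-COSMC KO was sorted as a population for high binding of a lectin to its surface and is no single clone, and how the other edited lines were selected is not given in the sources used here. Each genotype is thus represented by a single line, so that an effect of the edit and a difference between lines cannot be told apart.

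Sialic acids are acidic sugars that cap the glycans of cell surface proteins and lipids, where they are read by lectins such as Siglecs. In the cytosol the sugar is built from UDP-GlcNAc by GNE, NANS and NANP, and CMAS, an enzyme of the nucleus, couples it to CTP to give CMP-sialic acid. The transporter SLC35A1 carries this donor into the Golgi for the sialyltransferases, whereas NPL, a lyase, breaks free sialic acid down.

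Cmas, the gene targeted in MC38-CMAS KO and MC38-DKO, was the member that differed most: its RNA fell to 28.3% of the MC38-MOCK#1 level in MC38-CMAS KO and to 39.0% of the MC38-COSMC KO level in MC38-DKO. In these comparisons the changes of Gne, Nans, Nanp and Slc35a1 lay between -0.30 and 0.30 on the log2 scale, and none of them passed the test. Gne was higher and Nans lower in MC38-FUT9 than in MC38-MOCK#2. The levels of Nanp varied widely among samples of the same line, and Npl was not detected at this depth in 22 of 24 samples.

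The totals of normalized counts lay between 10911849 and 12263307 per sample, and the number of counted reads was estimated from the spacing of the scaled values at 6759106 to 16229893 per sample. The smallest of these libraries was sample 3 of MC38-WT. The mesenchymal markers Vim (19787 to 33315 normalized counts) and Fn1 (5997 to 26791) were high in every sample, while Cdh2 was lower (94 to 483). The 5 of 5 epithelial markers, including Epcam and Cdh1, did not exceed 8 normalized counts. Of the colon markers Cdx2 reached 1 and Vil1 8, so that the markers that define colon epithelium were absent or near 0 in these cells. Krt20 was the exception, with up to 468 in the line labelled MC38-FUT4. Leukocyte and endothelial markers stayed at 16 or below apart from Cd68 (17 to 63). C1galt1c1 had 242, 220 and 251 normalized counts in MC38-MOCK#1, 145, 163 and 124 in MC38-COSMC KO and 206, 166 and 175 in MC38-DKO. It fell by 0.73 on the log2 scale in MC38-COSMC KO (limma, adjusted p = 0.0128). In MC38-DKO the difference from MC38-MOCK#1 was -0.38 and did not pass the test (adjusted p = 0.459), beside -0.39 in MC38-CMAS KO and -0.40 in MC38-MOCK#2, in which C1galt1c1 was not targeted. The RNA of C1galt1c1 therefore did not set MC38-DKO apart from untargeted lines, and its COSMC status is taken from the label. Fut4 was listed at 0 in 22 samples and at 1 in samples 1 and 3 of the line labelled MC38-FUT4. This line instead contained 209, 171 and 186 normalized counts of Fut9, against 955, 641 and 676 in MC38-FUT9 and at most 7 in any other sample, so the RNA goes against its label.

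The sequences before the annotated starts of the genes are shown for Cmas, Slc35a1 and Gne, to set the CpG content of these promoters beside the levels that follow. RefSeq entries (GRCm38.p6) were found for Cmas, Gne, Slc35a1 and Npl, and not for Nans and Nanp. Each line holds the 250 bases upstream of the start in the direction of transcription, 5′ to 3′, with each CG dinucleotide in capitals.
Cmas, chr6:142756436-142756685, plus strand: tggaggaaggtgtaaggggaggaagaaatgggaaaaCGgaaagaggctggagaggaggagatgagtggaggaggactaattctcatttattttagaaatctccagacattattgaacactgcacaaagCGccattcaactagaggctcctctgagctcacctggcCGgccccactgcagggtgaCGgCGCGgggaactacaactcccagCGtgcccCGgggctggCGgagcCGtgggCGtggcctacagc
Slc35a1, chr4:34687439-34687688, minus strand: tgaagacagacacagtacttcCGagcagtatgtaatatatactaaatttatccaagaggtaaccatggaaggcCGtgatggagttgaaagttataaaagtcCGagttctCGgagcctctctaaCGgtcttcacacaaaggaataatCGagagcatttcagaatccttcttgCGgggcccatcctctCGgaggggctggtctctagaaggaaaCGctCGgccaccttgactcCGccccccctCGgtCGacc
Gne, chr4:44084178-44084427, minus strand: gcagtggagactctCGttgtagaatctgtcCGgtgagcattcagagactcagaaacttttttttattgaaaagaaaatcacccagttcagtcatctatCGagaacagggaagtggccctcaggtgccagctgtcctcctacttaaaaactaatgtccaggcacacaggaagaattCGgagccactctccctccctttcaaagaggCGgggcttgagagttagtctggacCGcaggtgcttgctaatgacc
The motif searched was CG, which reads the same on both strands. It occurred 11 times before Cmas, 13 times before Slc35a1 and 6 times before this start of Gne. Of 32536 mouse promoter windows of this length, 35.8%, 31.8% and 50.7%, respectively, held at least as many. The window of a second start of Gne held 22 and that of Npl 15, and both overlap annotated exons. Npl, with more CG dinucleotides than Cmas, was the member without detectable RNA, though its window overlaps exons. Without windows for Nans and Nanp, a relation of CG number to level was not tested.

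Scaled to exon length and to the total of the sample (CPM per kilobase), Nans was the highest of the genes, with a median over the 24 samples of 19.0. It was followed by Slc35a1 (13.8), Nanp (6.57), Cmas (6.04) and Gne (3.13), the gene of the first and rate-limiting enzyme, and Npl had a median of 0. On this scale the ranges of Nans (15.2 to 22.7) and Gne (2.45 to 3.77) did not meet. The exon lengths behind these values, from 1488 bases for Nanp to 6358 for Gne, join all annotated transcripts and were not limited to those used by MC38 cells.

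**Figure D1:**
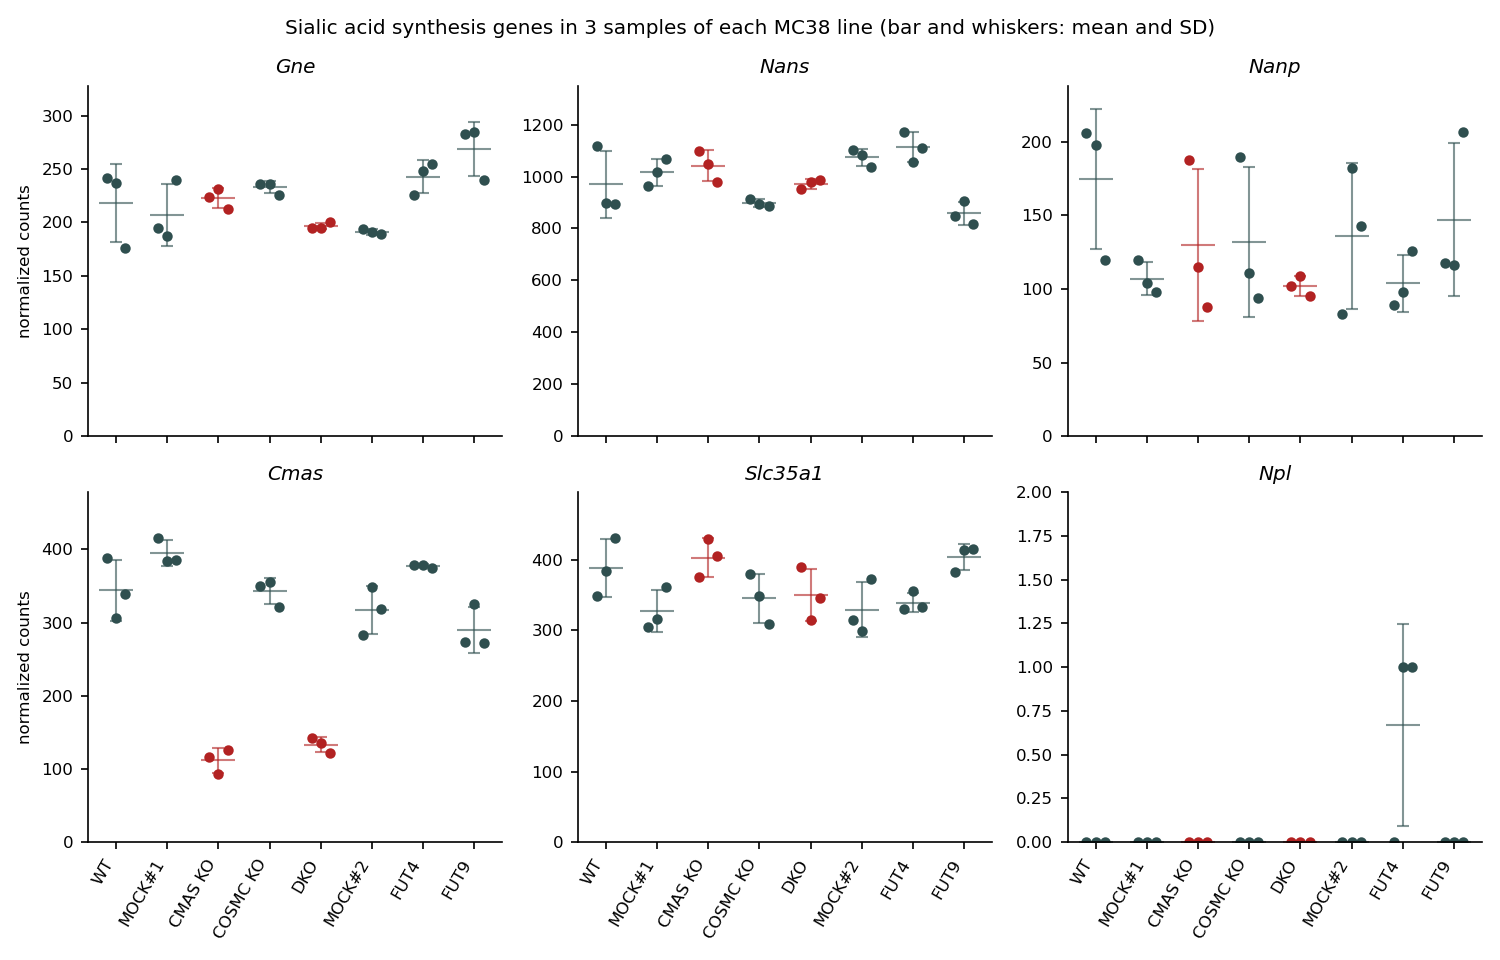
Normalized counts (vertical axes, each starting at 0 with its own range) of the 6 genes in the 3 samples of each of 8 MC38 lines (horizontal axis); points are samples, horizontal bars and whiskers are mean and SD, and the lines in which Cmas was targeted are in red. Cmas lies between 93 and 142 in the 6 samples of MC38-CMAS KO and MC38-DKO and between 272 and 416 in the other 18, while for the other genes these 6 samples overlap with the rest.

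Gne encodes the bifunctional epimerase and kinase that opens the pathway, and lies on the minus strand of chromosome 4 (ENSMUSG00000028479, chr4:44034075-44084177, GRCm38). It had 195, 187 and 240 normalized counts in MC38-MOCK#1, 224, 231 and 213 in MC38-CMAS KO, 236, 236 and 226 in MC38-COSMC KO and 195, 195 and 200 in MC38-DKO. All 3 samples of MC38-DKO lay below those of MC38-COSMC KO and of MC38-CMAS KO, but overlapped with MC38-MOCK#1. Of all genes tested, 28.2% did not overlap between MC38-DKO and MC38-COSMC KO and 24.5% between MC38-DKO and MC38-CMAS KO. The difference between MC38-DKO and MC38-COSMC KO was -0.24 on the log2 scale (SE 0.0878, 95% interval -0.44 to -0.04) and did not pass the threshold (limma, adjusted p = 0.124). In MC38-CMAS KO against MC38-MOCK#1 it was 0.11 (-0.17 to 0.39, limma, adjusted p = 0.649). The change of Gne with the loss of Cmas differed by -0.35 on the log2 scale between the COSMC background and the MC38-MOCK#1 background (interval -0.67 to -0.03), and this interaction missed the threshold (limma, adjusted p = 0.116) but passed it without sample 3 of MC38-MOCK#1, the sample with 240 (-0.46, adjusted p = 0.0241). Gne did not pass the test in any pairwise comparison of the knockout lines.

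In the lines of the dCas-VPR system, Gne had 194, 191 and 189 normalized counts in MC38-MOCK#2, 226, 248 and 255 in the line labelled MC38-FUT4 and 283, 285 and 240 in MC38-FUT9. All samples of the last 2 lines were above those of their control. Samples did not overlap with this control for 32.1% of all genes tested in the line labelled MC38-FUT4 and 36.8% in MC38-FUT9. Against MC38-MOCK#2, Gne was 0.49 higher on the log2 scale in MC38-FUT9 (SE 0.0962, interval 0.26 to 0.71, limma, adjusted p = 0.0122) and 0.34 higher in the line labelled MC38-FUT4 (SE 0.0886, interval 0.13 to 0.55, limma, adjusted p = 0.0426). The comparisons share the MC38-MOCK#2 samples, whose Gne values have a coefficient of variation of 1.32%, the smallest of any line. Large parts of the transcriptome differed as well: 24.1% of 21480 genes tested were differentially expressed genes (DEGs, adjusted p below 0.05) in MC38-FUT9, 12.1% upward, and 16.1% of 21734 in the line labelled MC38-FUT4, 8.1% upward, and a single member upward among 5 and 6 tested is not set apart from these shares. The call in the line labelled MC38-FUT4 was lost whichever of the 6 samples was left out (limma, adjusted p from 0.0552 to 0.0998), and that in MC38-FUT9 without its sample 1 (0.0534) or 2 (0.0501). Across the lines the mean of Gne ran from 191 in MC38-MOCK#2 to 269 in MC38-FUT9. Samples of neighbouring lines in this order overlapped except between MC38-DKO and MC38-MOCK#2, for which the share over all genes was not computed. The lowest value, 176, was that of sample 3 of MC38-WT, the smallest library, whose other samples had 242 and 237.

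Nans, which encodes the synthase that condenses N-acetylmannosamine 6-phosphate with phosphoenolpyruvate, lies on the plus strand of chromosome 4 (ENSMUSG00000028334, chr4:46489248-46503632). Its span overlaps Trim14 on the opposite strand, which had a mean of 24.5 normalized counts, and reads that fell in more than 1 gene were left out by the authors. Nans had the steadiest values of the genes, from 819 to 1173 over all samples. Its SD within lines of 0.0872 on the log2 scale was exceeded by 91.8% of the 7117 genes with a mean of 100 to 1100 normalized counts. Nans lies near the upper end of this range, where counting error is smaller, so this share depends in part on level. It had 965, 1016 and 1066 in MC38-MOCK#1, 1098, 1048 and 979 in MC38-CMAS KO, 915, 894 and 887 in MC38-COSMC KO and 951, 980 and 987 in MC38-DKO. MC38-COSMC KO was below MC38-MOCK#1 in every sample, by 0.18 on the log2 scale, without passing the threshold (interval -0.31 to -0.04, limma, adjusted p = 0.108). The samples of these lines did not overlap for 28.4% of all genes tested. With the loss of Cmas averaged over both COSMC states, the change of Nans was 0.08 (interval -0.02 to 0.17, limma, adjusted p = 0.575).

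MC38-FUT9 contained 848, 907 and 819 normalized counts of Nans and MC38-MOCK#2 1101, 1083 and 1038, so that the lines did not overlap. This was the case for 36.8% of all genes tested. Nans fell by 0.32 on the log2 scale in MC38-FUT9 (SE 0.0648, interval -0.48 to -0.17, limma, adjusted p = 0.0127), or to 79.9% of the control, against the same background of 24.1% DEGs. Without sample 1 of MC38-FUT9 the adjusted p was 0.0509. Gne and Nans therefore moved in opposite directions in this line. In the line labelled MC38-FUT4, Nans had 1173, 1057 and 1111, and its difference from MC38-MOCK#2 was 0.05 (interval -0.10 to 0.21).

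Nanp encodes the phosphatase that releases free sialic acid from its 9-phosphate and lies on the minus strand of chromosome 2 (ENSMUSG00000053916, chr2:151029685-151039398). The annotation of Ninl on the same strand runs across nearly the whole of Nanp, and Ninl had 519 to 705 normalized counts; reads of stretches that both genes share cannot be assigned to either gene, so the level of Nanp is uncertain. Nanp had 206, 198 and 120 normalized counts in MC38-WT, 120, 104 and 98 in MC38-MOCK#1, 188, 115 and 88 in MC38-CMAS KO and 190, 111 and 94 in MC38-COSMC KO. It had 102, 109 and 95 in MC38-DKO, 83, 182 and 143 in MC38-MOCK#2, 89, 98 and 126 in the line labelled MC38-FUT4 and 118, 116 and 207 in MC38-FUT9. In 17 samples the value was between 83 and 126 and in 6 samples between 182 and 207, with 1 sample between these ranges at 143, and the 6 high samples came from 5 lines. High and low samples thus occurred in the same line.

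The SD of Nanp within lines was 0.421 on the log2 scale. Of the 7117 genes with a mean of 100 to 1100 normalized counts, 4.43% had a larger one, with a median of 0.143. Nanp lies near the lower end of this range, where counting error is larger, so this share depends in part on level. Counting error alone would give an SD of 0.134 for Nanp at the estimated depth, a level that all 5 detected genes exceed for their own counts. The coefficient of variation went from 6.86% in MC38-DKO to 39.7% in MC38-CMAS KO. In the 4 lines taken at passages 4 to 6, chosen for this description after the values were seen, passage 4 gave 188, 190, 120 and 102 normalized counts in MC38-CMAS KO, MC38-COSMC KO, MC38-MOCK#1 and MC38-DKO, and passage 6 gave 88, 94, 98 and 95. The sample of passage 6 was the lowest of its line in these 4. The other lines did not share an order: MC38-FUT9 had its highest value at its last passage (207 at passage 8), MC38-MOCK#2 its lowest at its first (83 at passage 6), and MC38-WT its lowest at its last (120 at passage 9). Passage and harvest cannot be told apart. Nanp passed the test in 0 of 11 comparisons with limma, and 1 of them had an unadjusted p below 0.05, that of MC38-WT against MC38-MOCK#1, with 0.66 on the log2 scale (interval 0.13 to 1.19, limma, adjusted p = 0.148). The other 4 detected genes had SDs of 0.0872 to 0.136 within lines, against 0.0465 to 0.0993 from counting alone.

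**Figure D2:**
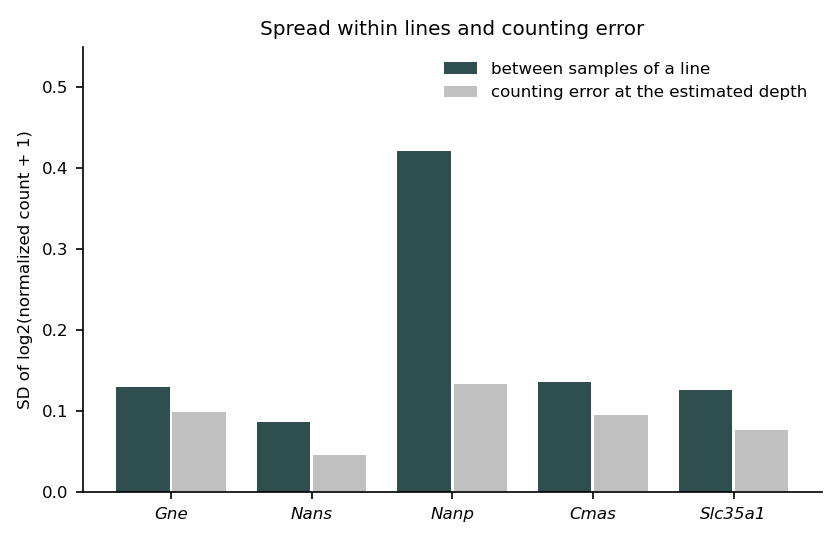
SD of log2(normalized count + 1) on the vertical axis for the 5 detected genes; dark bars give the SD between samples of the same line, pooled over 8 lines, and grey bars the SD that counting error alone gives at the estimated depth. The dark bar of Nanp (0.421) is the highest and stands far above its grey bar (0.134).

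Cmas encodes the synthetase that activates sialic acid with CTP and lies on the plus strand of chromosome 6 (ENSMUSG00000030282, chr6:142756686-142775714); its upstream sequence is printed above, and no other gene of the annotation overlaps it. MC38-MOCK#1 contained 416, 384 and 386 normalized counts of Cmas, or 395 ± 17.9 (SD, n = 3), and MC38-CMAS KO 117, 93 and 126, or 112 ± 17.1. MC38-COSMC KO contained 350, 356 and 322, or 343 ± 18.1, and MC38-DKO 142, 135 and 122, or 133 ± 10.1. Both lines in which Cmas was targeted lay below every other sample of the series, whose lowest value was 272, and both kept reads of the gene. Relative to the mean of each of the other 6 lines, MC38-CMAS KO retained 28.3% to 38.6% of the Cmas RNA and MC38-DKO 33.6% to 45.8%.

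In MC38-CMAS KO against MC38-MOCK#1, Cmas fell by 1.82 on the log2 scale (SE 0.13, interval -2.13 to -1.51, limma, adjusted p = 0.00168). It was the 1 member among 1268 DEGs, in a comparison where 5.76% of 22024 genes tested were DEGs and 2.73% were lower. With each of the 6 samples left out in turn, 122 to 876 genes were DEGs and Cmas was 1 of them each time. With the replicate number, which is also the passage in these lines, as a block, the value was the same and the adjusted p 0.107. In MC38-DKO against MC38-COSMC KO, a comparison with other samples on both sides, Cmas fell by 1.36 (SE 0.102, interval -1.60 to -1.12, limma, adjusted p = 0.0003), again the 1 member among the DEGs, which made up 12.9% of genes tested, 6.75% downward. With the loss of Cmas averaged over both COSMC states in a fit of 12 samples, Cmas changed by -1.59 (SE 0.0846, interval -1.77 to -1.41, limma, adjusted p = 7.16e-07). By its p-value Cmas was placed 1 of 21396 genes in this average, which had 287 DEGs (1.34%, and 0.636% downward). Of the 742 genes that were DEGs in both separate comparisons, 719 moved in opposite directions and 23 in the same direction, 8 of them downward. These 23 were 1.81% of the DEGs of the first and 0.81% of those of the second comparison. Cmas had the third largest fall among the 8 in either comparison, which is a description only, since the 8 were chosen from these values. MC38-MOCK#1 and MC38-DKO, with 20 DEGs between them, stand on opposite sides of these comparisons.

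Against the common control MC38-MOCK#1, the fall of Cmas in MC38-DKO was 1.57 on the log2 scale (SE 0.106, interval -1.81 to -1.32, limma, adjusted p = 0.00235). There were 20 DEGs among 21738 genes in this comparison (0.092%, and 0.069% downward), and Cmas had the second smallest p-value of them. With each of the 6 samples left out in turn, 0 to 4 genes were DEGs and the value for Cmas stayed between -1.61 and -1.51, while its adjusted p rose to between 0.0731 and 0.18 except without sample 3 of MC38-DKO. A block for the sample numbers gave an adjusted p of 0.313. The 2 lines with the knockout did not differ from each other beyond their spread: Cmas was 0.25 higher in MC38-DKO than in MC38-CMAS KO (interval -0.10 to 0.61, limma, adjusted p = 0.392). The fall of Cmas in the COSMC background was smaller by 0.46 (interval 0.10 to 0.82) than in the MC38-MOCK#1 background, and this interaction had an unadjusted p of 0.0167 in the limma fit and missed the threshold after adjustment (adjusted p = 0.0686), which 22.1% of genes passed. It passed the threshold without sample 3 of MC38-CMAS KO (0.55, adjusted p = 0.0331).

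In the lines in which it was not targeted, Cmas had 388, 306 and 339 normalized counts in MC38-WT, 283, 348 and 319 in MC38-MOCK#2, 379, 379 and 375 in the line labelled MC38-FUT4 and 273, 326 and 272 in MC38-FUT9. MC38-MOCK#1 was the highest line for Cmas, followed by the line labelled MC38-FUT4. The samples of these lines did not overlap, and the share of all genes for which this holds was not computed. The order then ran through MC38-WT, MC38-COSMC KO and MC38-MOCK#2 to MC38-FUT9, and neighbours among these overlapped. MC38-MOCK#2 and MC38-MOCK#1, both control lines, did not overlap for Cmas, with a difference of -0.32 on the log2 scale (interval -0.56 to -0.09, limma, adjusted p = 0.0839). Between these control lines 28.7% of all genes tested did not overlap. Differences from MC38-MOCK#1 in MC38-COSMC KO (-0.21, adjusted p = 0.141) and MC38-WT (-0.20, adjusted p = 0.356) did not pass the limma test either. These 3 comparisons and those of MC38-CMAS KO and MC38-DKO share the MC38-MOCK#1 samples.

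The genes around Cmas were examined for changes that extend beyond it. The 3 nearest genes on either side with a mean of at least 10 normalized counts lie 235206 to 1052711 bases away. Golt1b, Spx, Ldhb, C2cd5 and Etnk1 were no DEGs in MC38-CMAS KO against MC38-MOCK#1 or in MC38-DKO against MC38-COSMC KO, with values between -0.37 and 0.54. Sox5, the farthest and a transcription factor gene, rose by 2.39 on the log2 scale in the first (limma, adjusted p = 0.0394) and fell by 2.28 in the second (limma, adjusted p = 0.00236), so it did not follow Cmas. The median over the 665 genes tested on chromosome 6 was -0.09 in the first comparison and 0.07 in the second.

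**Figure D3:**
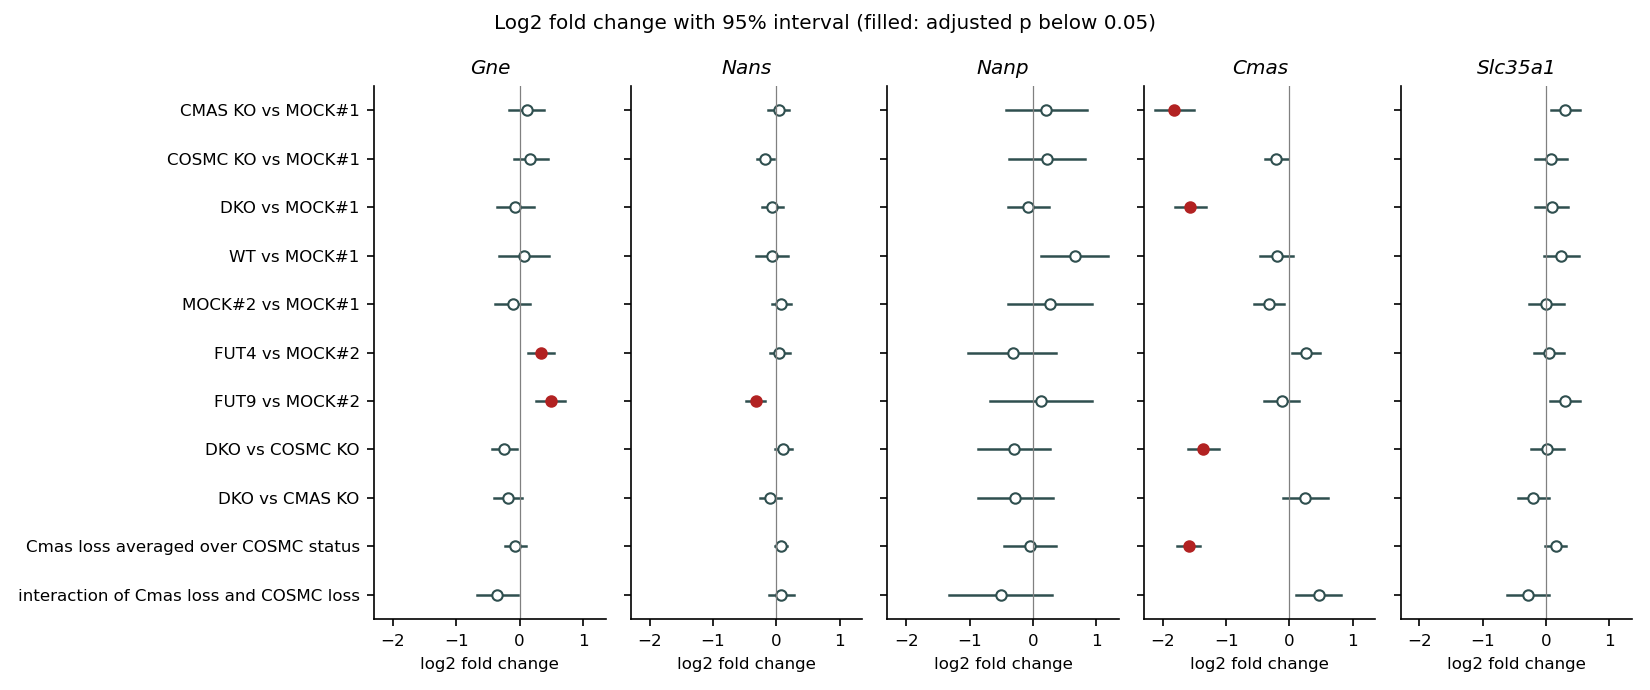
Log2 fold change (horizontal axes, with 95% interval from limma) of the 5 detected genes in 11 comparisons (vertical axis); filled points passed an adjusted p of 0.05. Cmas is below -1.3 in the 4 comparisons that contrast its knockout with a control or average over them, and the other filled points are Gne (0.34 and 0.49) and Nans (-0.32) in the lines of the dCas-VPR system.

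Slc35a1 encodes the CMP-sialic acid transporter of the Golgi and lies on the minus strand of chromosome 4 (ENSMUSG00000028293, chr4:34663257-34687438). It had 305, 316 and 361 normalized counts in MC38-MOCK#1, 375, 429 and 405 in MC38-CMAS KO, 379, 348 and 309 in MC38-COSMC KO and 389, 315 and 345 in MC38-DKO. All samples of MC38-CMAS KO lay above those of MC38-MOCK#1, with a difference of 0.30 on the log2 scale (SE 0.0958, interval 0.07 to 0.53) that did not pass the threshold (limma, adjusted p = 0.123). The samples of these 2 lines did not overlap for 24.3% of all genes tested. In MC38-DKO against MC38-COSMC KO the samples overlapped and the difference was 0.02 (interval -0.24 to 0.28, limma, adjusted p = 0.956). MC38-FUT9 contained 382, 414 and 415 and MC38-MOCK#2 315, 299 and 373. This difference of 0.30 (interval 0.06 to 0.54) missed the threshold as well (limma, adjusted p = 0.0757) and passed it without sample 3 of MC38-MOCK#2 (0.39, adjusted p = 0.0189) and in a fit of all 8 lines (0.30, adjusted p = 0.0388). MC38-WT had 349, 384 and 431 and the line labelled MC38-FUT4 330, 355 and 333, and neighbouring lines in the order of Slc35a1 all overlapped. Slc35a1 was a DEG in 0 of 11 comparisons with limma, and had an unadjusted p below 0.05 in 2 of them.

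Npl, the lyase that returns sialic acid to N-acetylmannosamine and pyruvate, lies on the minus strand of chromosome 1 (ENSMUSG00000042684, chr1:153503015-153550045). It was listed at 0 in 22 samples and at 1 in samples 2 and 3 of the line labelled MC38-FUT4. A count of 0 allows up to 3 reads per library, which is 0.185 to 0.444 CPM, or 0.0624 to 0.15 CPM per kilobase, and covers counting error only. Lamc1 and Dhx9, on its lower side, had means of 5980 and 6700 normalized counts, so the stretch of chromosome beside Npl held highly expressed genes.

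The genes that feed the pathway or use its product were described by list. For the loss of Cmas averaged over both COSMC states, limma found 0 DEGs among 9 tested genes of UDP-GlcNAc supply, 7 of sialic acid modification and recycling, 9 sialyltransferases, 12 other nucleotide sugar transporters and 2 CTP synthases. Unadjusted p-values below 0.05 numbered 0, 1, 4, 4 and 0 in these lists, and their median changes were -0.04, 0.00, 0.13, 0.07 and -0.02 on the log2 scale, beside a median of 0.00 over all genes tested. With 1.34% of all genes being DEGs in this average, a count of 0 among 39 is near the background. Changes of opposite direction cancel in the average, as for Renbp (1.18 and -1.25 in the separate comparisons, -0.04 in the average). The count of 0 therefore does not show that the lists were unchanged in either background. By the interaction term of the same fit, 5 of the 39 passed with a positive and 8 with a negative value, beside 22.1% of all genes. In MC38-DKO against MC38-MOCK#1 there were likewise 0 DEGs in the 5 lists with limma, and 2 genes with an unadjusted p below 0.05, beside 0.092% DEGs among all genes tested. No gene of the lists apart from Cmas was a DEG in the same direction in MC38-CMAS KO against MC38-MOCK#1 and in MC38-DKO against MC38-COSMC KO. Cmah, the hydroxylase that makes N-glycolylneuraminic acid from CMP-sialic acid in mice, had 0 to 5 normalized counts in all samples.

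In MC38-CMAS KO against MC38-MOCK#1, 4 of the 40 tested genes of the lists rose and 0 fell, beside 3.02% of all genes tested that rose. They are named here after their values were seen. Renbp, the epimerase that interconverts N-acetylglucosamine and N-acetylmannosamine, had 415, 377 and 445 normalized counts in MC38-CMAS KO and 179, 164 and 203 in MC38-MOCK#1, a rise of 1.18 on the log2 scale (SE 0.111, limma, adjusted p = 0.00383). The lysosomal protective protein gene Ctsa rose by 0.38, the sialyltransferase gene St3gal4 by 0.37 and Slc35d1, a transporter of UDP-sugars, by 0.51 (limma, adjusted p = 0.0366, 0.0393 and 0.0306). In MC38-DKO against MC38-COSMC KO the direction was the other: Renbp fell by 1.25, with 149, 124 and 123 against 356, 302 and 291 normalized counts (SE 0.125, limma, adjusted p = 0.000989), St3gal4 by 0.30 and Slc35d1 by 0.36 (limma, adjusted p = 0.0419 and 0.0288), and Ctsa had -0.18 (adjusted p = 0.0578). Among the 40 tested genes of the lists, 4 rose and 5 fell in MC38-DKO against MC38-COSMC KO, beside 12.9% DEGs among all genes tested. Renbp had 441, 596 and 488 in MC38-WT and 410, 578 and 705 in MC38-MOCK#2, so among the unedited and control lines it was low in MC38-MOCK#1 only. The level of this gene, which can supply N-acetylmannosamine beside GNE, thus moved in opposite directions in the separate comparisons of Cmas loss. Its relation to the values of Cmas was not tested.

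**Figure D4:**
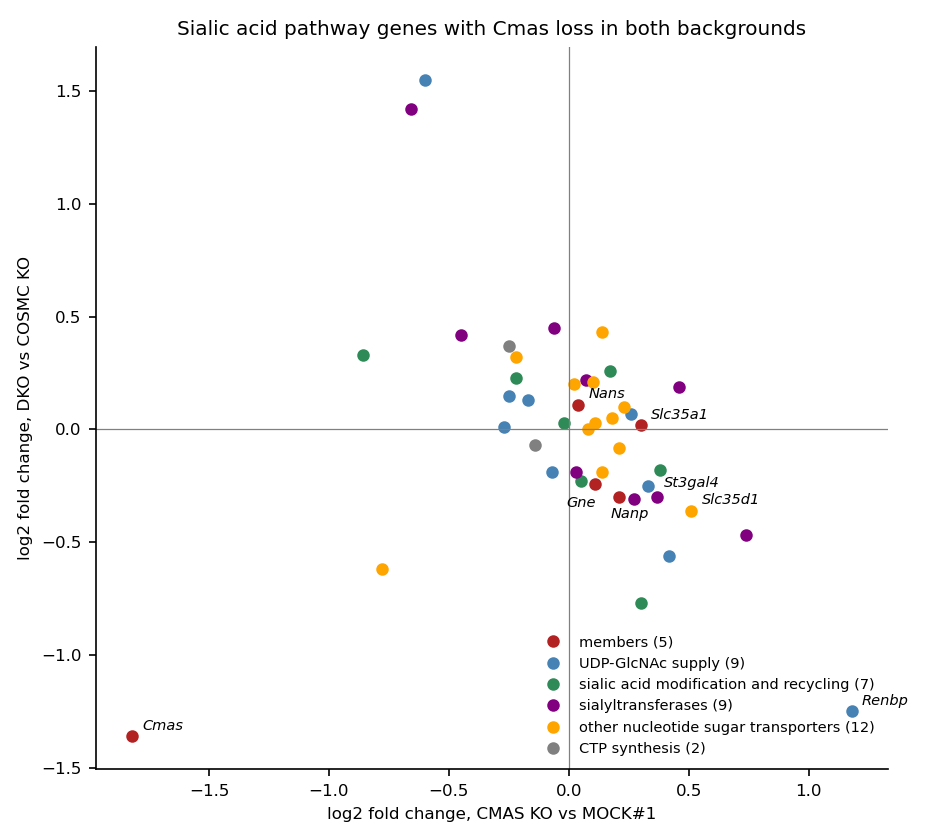
Log2 fold changes of 44 tested genes of the sialic acid pathway and its surroundings in MC38-CMAS KO against MC38-MOCK#1 (horizontal axis) and in MC38-DKO against MC38-COSMC KO (vertical axis), 2 comparisons without shared samples, coloured by list with the number of genes. Cmas lies at -1.82 and -1.36, apart from the rest, and Renbp at 1.18 and -1.25.

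In MC38-COSMC KO against MC38-MOCK#1, where 11.6% of 22172 genes tested were DEGs (6.17% upward and 5.39% downward), 0 of the 5 detected members passed the limma test, although 2 (Nans and Cmas) had an unadjusted p below 0.05. The lists held 2 genes of UDP-GlcNAc supply, 2 of modification and recycling, 1 sialyltransferase and 1 transporter that rose, and 3 sialyltransferases that fell. MC38-WT against MC38-MOCK#1 (5.51% DEGs) and MC38-MOCK#2 against MC38-MOCK#1 (11.3% DEGs) also held 0 members among their DEGs with limma, and 1 member each with an unadjusted p below 0.05. MC38-DKO against MC38-CMAS KO (6.93% DEGs) held 0, with 0 unadjusted p-values below 0.05. In MC38-FUT9 against MC38-MOCK#2, where 24.1% of all genes tested were DEGs and 12.1% rose, 7 of the 40 tested genes of the 5 lists rose and 9 fell.

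Across all 24 samples, the Pearson correlation of log2 values between 2 members lay between -0.40, for Nans and Slc35a1, and 0.30, for Gne and Slc35a1. Without the 6 samples of MC38-CMAS KO and MC38-DKO it reached 0.55 for Nans and Cmas and -0.55 for Nans and Slc35a1 over 18 samples. Samples of a line are not independent in this measure, and all samples share the scaling. Among 10874 genes with a mean of at least 50, the 3 with the pattern most like each member over the 24 samples were Rad54l2, Actr8 and Mars for Gne (0.841, 0.826 and 0.811), Psma7, Nxt1 and Tubb4b for Nans (0.876, 0.864 and 0.856), and Fars2, Clic1 and Ift27 for Nanp (0.715, 0.689 and 0.689). For Cmas they were Ube2n-ps1, Mrpl10 and Gm8960 (0.682, 0.643 and 0.623), and for Slc35a1 they were Dpy19l4, Gm12606 and Spry2 (0.83, 0.761 and 0.753). The values for Cmas were the lowest of the 5, and none of the 15 genes is a member.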

How the data were processed

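RNA of 24 samples of 8 MC38 lines was sequenced by the authors as single reads from stranded poly(A) libraries, trimmed, aligned to GRCm38 with HISAT2 2.0.4, handled with SAMtools 0.1.19 and counted per gene with featureCounts (Subread 1.5.0-p3) without reads that overlap several genes. The deposited numbers were treated as a score, since the authors normalized the counts with edgeR 3.18.1 by library size and TMM and rounded them, so the values are not raw counts and count models were not applied. Reads per library were estimated from gaps that scaling leaves among whole numbers (tested on simulated data; its grid was made finer after a first look at the estimates).

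The 6 genes and the lists were chosen with earlier results of these data known. Values were tested on the log2(value + 1) scale with limma 3.58.1 (R 4.3.3, mean-variance trend, Benjamini-Hochberg adjustment over all genes tested, threshold 0.05), with the 3 samples of either line; the average and the interaction used the 12 samples of MC38-MOCK#1, MC38-CMAS KO, MC38-COSMC KO and MC38-DKO. Genes with more than 4 zeros among 6 samples, or 8 among 12, were left out: 5 of the 6 members passed in every comparison, and Npl passed only for the line labelled MC38-FUT4, where both lines are at or under the limit of detection. This scale understates changes of low genes. P-values measure the spread between samples of a line and not between independently made lines.
Genes are named by rule: every member; of the lists, genes that are DEGs in the same direction in both separate comparisons of Cmas loss, the 2 largest changes among DEGs of the averaged loss, and Cmah; the other targets; 3 neighbours on either side; and the 3 genes of most similar pattern. Others are marked as chosen after their values were seen. Neighbours and coordinates are from the GRCm38 annotation. Alternatives were a pseudocount of 5, no filter, a mean of at least 10, equal totals, median-of-ratios scaling, all 8 lines in 1 fit, no trend, the replicate number as a block, and leaving out each sample. Tables and plots were made in Python 3.11.15 (matplotlib 3.10.9, pandas 2.3.3, numpy 2.4.6). Protein sequences and the guide against Cmas were not used here.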

Additional observations from a re-analysis of the deposited data

Results flagged for a closer look

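The change that went with the targeting of Cmas differed between the COSMC knockout background and the MC38-MOCK#1 background, by the interaction term of the limma fit of 12 samples, for 6 of the members, list genes, targets and neighbours of Cmas named here. The value is the change in the COSMC knockout background minus that in the MC38-MOCK#1 background on the log2 scale. It was -4.67 for Sox5 (SE 0.586, adjusted p = 6.15e-05), -2.43 for Renbp (SE 0.173, adjusted p = 3.88e-07), -0.87 for Slc35d1 (SE 0.131, adjusted p = 0.000295), -0.67 for St3gal4 (SE 0.112, adjusted p = 0.000661), -0.56 for Ctsa (SE 0.0941, adjusted p = 0.000688) and 0.73 for C1galt1c1 (SE 0.206, adjusted p = 0.0201). Renbp, Slc35d1, St3gal4 and Ctsa were named because they were DEGs in MC38-CMAS KO against MC38-MOCK#1. That comparison is part of the interaction, so the interaction is no independent result for these genes. Among all 39 tested genes of the 5 lists, 5 passed with a positive value and 8 with a negative one. In the same fit 22.1% of genes passed the threshold. The samples of MC38-MOCK#1 and MC38-DKO enter the interaction with the same sign, and in the direct comparison of these lines 20 genes were DEGs. For Renbp the 3 values of either line lay between 123 and 203 normalized counts, below all other samples of the series. Of the members, none passed this test, and Cmas came closest (0.46, adjusted p = 0.0686).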

How the results depend on the processing

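The fall of Cmas kept its direction under every alternative run. It passed the threshold in 13 of 14 alternatives for MC38-CMAS KO against MC38-MOCK#1 (-1.91 to -1.69), in 8 of 14 for MC38-DKO against MC38-MOCK#1 (-1.61 to -1.51, adjusted p up to 0.313), in 14 of 14 for MC38-DKO against MC38-COSMC KO (-1.41 to -1.30) and in 20 of 20 for the average (-1.64 to -1.53). Of 840 values of single members under alternatives, 799 kept direction and side of the threshold, 21 lost the call, 7 gained it and 13 changed sign, none of these a value that had passed. Where a setting moved counts, the cause was not tested.

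Samples with the same number were compared by the correlation of their deviations from the line means, which lay between -0.213 and 0.254 and was not above 0.1 for every number in any comparison, so the numbers were not taken as pairs. The numbers 1 to 3 are passages 4 to 6 in MC38-MOCK#1 and the 3 knockout lines and passages 6 to 8 in MC38-MOCK#2 and MC38-FUT9. Every sample correlated best with its own number in 3 of 9 comparisons (MC38-DKO against MC38-CMAS KO, MC38-MOCK#2 against MC38-MOCK#1, and MC38-FUT9 against MC38-MOCK#2). In the first and the last of these, equal numbers are also equal passages by the labels, so a shared passage is part of the design there. In MC38-MOCK#2 against MC38-MOCK#1 the passages of equal numbers differ. With the number as a block, the DEGs came to 1 for MC38-CMAS KO, 4 for MC38-COSMC KO, 0 for MC38-DKO (1408 with an unadjusted p below 0.05 in limma) and 0 for MC38-WT (3788) against MC38-MOCK#1, to 1756 for the line labelled MC38-FUT4 against MC38-MOCK#2 and to 795 for MC38-DKO against MC38-CMAS KO. With this block the members called were 0 for MC38-CMAS KO (Cmas -1.82, adjusted p = 0.107), 0 for MC38-DKO against MC38-MOCK#1 (Cmas -1.57, adjusted p = 0.313) and 0 for the line labelled MC38-FUT4 (Gne 0.34, adjusted p = 0.0906).

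Without the mean-variance trend, the DEGs against MC38-MOCK#1 were 726 for MC38-CMAS KO, 1135 for MC38-COSMC KO, 40 for MC38-DKO, 717 for MC38-WT and 1389 for MC38-MOCK#2; against MC38-MOCK#2 they were 2270 for the line labelled MC38-FUT4 and 3430 for MC38-FUT9; MC38-DKO had 1238 against MC38-COSMC KO and 692 against MC38-CMAS KO, and the average had 140. In a fit of all 8 lines they were 2154 for MC38-CMAS KO, 148 for MC38-DKO, 2924 for MC38-WT and 3889 for MC38-MOCK#2 against MC38-MOCK#1, and 2360 for MC38-DKO against MC38-CMAS KO. For the line labelled MC38-FUT4, the members called fell from 1 to 0 with no filter (Gne, adjusted p = 0.0516), equal totals (0.053) and no trend (0.0863); for MC38-FUT9 they fell from 2 to 1 with no trend (Nans, 0.0666) and rose to 3 in the fit of all 8 lines (Slc35a1, 0.0388). For the interaction they rose from 0 to 1, which was Cmas, with a mean of at least 10 (0.46, adjusted p = 0.0498), equal totals (0.52, 0.0412) and all 8 lines in 1 fit (0.46, 0.0451).

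With 1 sample left out at a time the DEGs ranged against MC38-MOCK#1 from 122 to 876 for MC38-CMAS KO, 675 to 2137 for MC38-COSMC KO, 0 to 4 for MC38-DKO (1492 to 2042 unadjusted where 0), 31 to 693 for MC38-WT and 632 to 1737 for MC38-MOCK#2. They ranged from 1621 to 3112 for the line labelled MC38-FUT4, 3089 to 5065 for MC38-FUT9, 1050 to 2154 for MC38-DKO against MC38-COSMC KO, 231 to 761 against MC38-CMAS KO and 161 to 265 for the average. The members called ranged from 0 to 1 for MC38-DKO against MC38-MOCK#1, 0 to 0 for the line labelled MC38-FUT4, 0 to 3 for MC38-FUT9 and 0 to 1 for the interaction. The values that changed sign then were those of Nanp in MC38-CMAS KO (-0.09 to 0.46), MC38-COSMC KO (-0.07 to 0.44) and MC38-DKO (-0.13 to 0.01) against MC38-MOCK#1, in MC38-FUT9 (-0.19 to 0.37), in MC38-DKO against MC38-CMAS KO (-0.53 to 0.02) and in the average (-0.19 to 0.10), of Gne in MC38-DKO (-0.14 to 0.04) and MC38-WT (-0.01 to 0.22) against MC38-MOCK#1, and of Slc35a1 in the line labelled MC38-FUT4 (-0.02 to 0.14) and in MC38-DKO against MC38-COSMC KO (-0.06 to 0.09).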
